A study of Mus musculus with 4 samples.

Results

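The genes described here are 10 transcription factors and cofactors: Lmo2, Lmo4, Lyl1, Tal1, Ldb1, Gata2, Hhex, Mef2c, Nfe2 and Erg. They were chosen by name, as components or partners of the Lmo2 complex or as stem and progenitor cell regulators with ties to T-cell leukaemia. All 10 were found, of 33114 named genes measured in each library. The study profiled mRNA by sequencing in flow-sorted thymocytes of mice that all lacked Rag1 (Rag1-/-), on the C57BL/6 (B6) or the NOD background. There were 4 groups: B6 at 4 weeks, B6 at 7 weeks, NOD at 4 weeks and NOD at 6.5 weeks. Each group was 1 library, so no difference between 2 libraries has a replicate check and none is given a p-value. The sources used here state neither the sort markers nor whether a library pooled several mice. The series title places the study on failure of an early T-cell checkpoint and the start of leukaemia in Rag1-deficient NOD mice.

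Rag1 is needed to cut and join the T-cell receptor genes, so thymocytes that lack it normally halt at the double negative stage, before the receptor beta chain can be made. Lmo2 is a LIM-domain protein that does not bind DNA itself. It bridges a basic helix-loop-helix (bHLH) factor, either Tal1 or its paralog Lyl1, to the cofactor Ldb1 and often to a GATA factor, and the resulting complex acts in blood stem cells and progenitors. Lmo2 and Lyl1 are normally turned down when thymocytes commit to the T lineage, and their continued activity in the thymus is a known route to T-cell leukaemia.

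Expression is given as RPKM (reads per kilobase of transcript model, scaled to the library's mapped reads), which corrects for gene length, so levels of different genes can be set side by side. The 10 members fell into 3 descriptive classes read from the values themselves, and no test is attached to these classes. Lmo2, Lyl1, Hhex, Mef2c and Nfe2 were at least 2-fold higher in NOD at week 6.5 than in NOD at week 4. Ldb1, Lmo4 and Erg were on in all 4 libraries with no 2-fold difference between any of them. Tal1 and Gata2 stayed under RPKM 1 throughout.

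Sequencing depth, recovered from the step size of low RPKM values, was 17060000 to 24100000 mapped reads per library. The B6 week 7 library had 52.6% of its reads in the listed genes, against 61.4% to 67.0% in the other libraries. RPKM in that library ran low in general: the median gene was at -0.30 on the log2 scale against B6 week 4, and at -0.01 after trimmed mean scaling. In the NOD week 6.5 library the median gene at RPKM 5 or more had 3.0% of its reads shared with other places in the genome, against 0.0% in the other libraries. All 9 thymocyte marker genes were on in every library, with a summed RPKM of 3803.08 to 4608.10. Xist and the Y-linked gene Ddx3y were both detected in every library, with Xist lowest (RPKM 20.19) and Ddx3y highest (16.65) in NOD week 4. The part of these library differences in the results was not tested.

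The stretches just upstream of a gene's start are shown for Lyl1 and Hhex, a pair of members with closely similar profiles, and for Tal1, the paralog of Lyl1 that stayed off. Each is the 250 bases before the (first) RefSeq start, read 5′ to 3′ on the gene's own strand, which is the plus strand for all of them, from build GRCm38.p6. They lie at chr8:84701207-84701456 for Lyl1, chr19:37434591-37434840 for Hhex and chr4:115056176-115056425 for Tal1. Capitals mark matches, on either strand, to the E-box bound by bHLH factors (CANNTG), the GATA core (GATAA, or TTATC on the other strand) or the ETS core (CCGGAA, or TTCCGG on the other strand).
Lyl1: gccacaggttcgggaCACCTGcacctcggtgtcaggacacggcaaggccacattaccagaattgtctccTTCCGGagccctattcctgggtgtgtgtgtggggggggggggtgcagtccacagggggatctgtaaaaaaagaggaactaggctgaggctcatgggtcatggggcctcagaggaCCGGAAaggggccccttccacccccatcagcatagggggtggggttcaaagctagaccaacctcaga
Hhex: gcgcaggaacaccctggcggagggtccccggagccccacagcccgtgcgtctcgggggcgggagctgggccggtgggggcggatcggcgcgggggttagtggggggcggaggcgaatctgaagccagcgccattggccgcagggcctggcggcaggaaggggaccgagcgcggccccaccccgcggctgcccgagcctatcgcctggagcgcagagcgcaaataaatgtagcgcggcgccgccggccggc
Tal1: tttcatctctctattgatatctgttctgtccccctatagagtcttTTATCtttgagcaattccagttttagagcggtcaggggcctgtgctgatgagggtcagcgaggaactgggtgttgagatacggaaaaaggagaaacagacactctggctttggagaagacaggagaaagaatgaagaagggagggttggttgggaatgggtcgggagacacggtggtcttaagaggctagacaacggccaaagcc
The Lyl1 window held 1 E-box and 2 ETS cores, the Hhex window held none of these letters and was 76.0% G and C, and the Tal1 window held 1 GATA core. No matches overlapped each other. Of 32851 mouse promoters of the same length, 66.2% held an E-box, 22.6% a GATA core and 12% an ETS core. These shares are of promoters with at least 1 match, and the share with 2 ETS cores was not counted. The promoter table covered 8 of the 10 members with 18 starts. These letters are a description of the windows and mark no site of binding.

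Lmo2, the bridging subunit, was near the floor in 3 libraries and clearly present in the last. Its RPKM was 0.31 and 0.11 in B6 (weeks 4 and 7) and 0.44 and 5 in NOD (weeks 4 and 6.5). These values stood on 9, 4, 13 and 206 reads. NOD week 6.5 was therefore far above all the others, by 11.4-fold over NOD week 4 (95% counting interval 6.49 to 21.7) and 45.5-fold over B6 week 7 (17.5 to 168). Neighbours among the 3 low libraries were not separated at this depth: NOD week 4 was 1.42-fold B6 week 4 (0.565 to 3.78), and B6 week 4 was 2.82-fold B6 week 7 (0.782 to 12.5). The ends of that range, NOD week 4 and B6 week 7, differed 4-fold (1.24 to 16.8). Intervals of ratios are exact binomial (Clopper-Pearson), those of single levels are exact Poisson, and both cover counting error only, since PCR copies are not independent molecules. In such bulk samples, more cells of a type and more RNA per cell cannot be told apart.

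Lyl1, the bHLH partner, differed from Lmo2 in being measurable in every library. Its RPKM was 3.84 and 1.47 in B6 (weeks 4 and 7) and 0.90 and 8.39 in NOD (weeks 4 and 6.5). The order was NOD week 6.5, then B6 week 4, then B6 week 7, then NOD week 4, and each neighbouring pair in that order was separated beyond counting error. NOD week 6.5 was 9.32-fold NOD week 4 (6.33 to 14.2), but 2.18-fold B6 week 4 (1.77 to 2.71). The younger B6 thymocytes thus held a clear level of Lyl1 of their own, 4.27-fold that of the younger NOD thymocytes (2.8 to 6.69). In B6 the older library was lower, at 0.383-fold the younger (0.272 to 0.528).

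Hhex, a homeobox factor of early haematopoietic progenitors, had a profile near that of Lyl1, at a lower level. RPKM was 1.69 and 0.64 in B6 (weeks 4 and 7) and 0.68 and 6.5 in NOD (weeks 4 and 6.5). NOD week 6.5 was highest, B6 week 4 came next, and the 2 lowest libraries did not differ beyond counting error (1.06-fold, 0.57 to 2.02). The step from B6 week 4 to NOD week 6.5 was 3.85-fold (2.84 to 5.29), larger than the 2.18-fold of Lyl1 (1.77 to 2.71). The NOD age ratio was 9.56-fold (6.06 to 15.5) and the B6 age ratio 0.379-fold (0.222 to 0.625). Up to 9% of the Hhex reads were shared with other places, the largest share being in NOD week 6.5.

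Nfe2, a bZIP factor best known from megakaryocytes and erythroid cells, was the most abundant of the 5. Its RPKM was 19.54 and 12.24 in B6 (weeks 4 and 7) and 11.53 and 32.99 in NOD (weeks 4 and 6.5). It was thus well expressed everywhere, with the same highest and second highest library as Lyl1 and Hhex. NOD week 6.5 was 2.86-fold NOD week 4 (2.54 to 3.24) and 1.69-fold B6 week 4 (1.53 to 1.87), while B6 week 7 was 0.626-fold B6 week 4 (0.551 to 0.712). On log2(RPKM + 1) that B6 difference was -0.63 as deposited, -0.30 after trimmed mean scaling and -0.26 after quantile normalization.

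Mef2c, a MADS-box factor active in lymphoid progenitors and in an immature form of T-cell leukaemia, was the exception among the 5. Its RPKM was 0.84 and 2.14 in B6 (weeks 4 and 7) and 1.39 and 5.61 in NOD (weeks 4 and 6.5). The older library was the higher in both strains, by 4.04-fold in NOD (3.06 to 5.45) and 2.55-fold in B6 (1.71 to 3.8). Every neighbouring pair in its order of levels was separated beyond counting error. The younger NOD library was above the younger B6 library, at 1.65-fold (1.06 to 2.57), the opposite of Lyl1, Hhex and Nfe2.

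**Figure D1:**
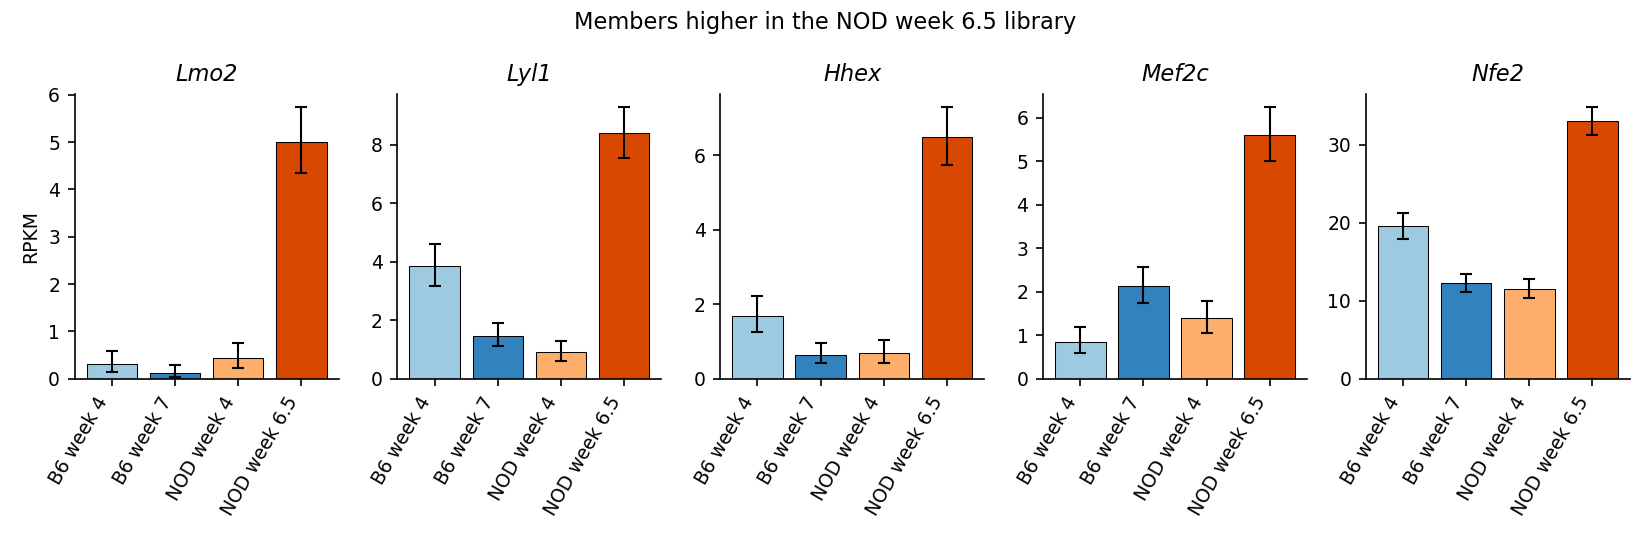
RPKM (vertical axis, linear, own scale in each panel) of the 5 members higher in the NOD week 6.5 library, as 1 bar per library with the exact 95% counting interval. NOD week 6.5 is the tallest bar in every panel, from RPKM 5 for Lmo2 to 32.99 for Nfe2, and B6 week 4 is the second tallest for Lyl1, Hhex and Nfe2.

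Ldb1, the dimerising cofactor that holds Lmo2 complexes together, was by far the most abundant member. RPKM was 129.73 and 83.38 in B6 (weeks 4 and 7) and 114.90 and 105.91 in NOD (weeks 4 and 6.5). The highest and lowest libraries differed 1.56-fold. Its NOD age ratio was 0.922 (0.887 to 0.958), so the cofactor was no higher in the library where Lmo2 and Lyl1 were. The lower value in B6 week 7 stood beside the general shift of that library: the log2 difference from B6 week 4 was -0.63 as deposited, -0.28 after trimmed mean scaling and -0.20 after quantile normalization.

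Lmo4, a LIM-only paralog that can also bind Ldb1, had the smallest ratio of highest to lowest level among the 3 members always on, at 1.28-fold. RPKM was 13.88 and 12.13 in B6 (weeks 4 and 7) and 11.26 and 10.86 in NOD (weeks 4 and 6.5), and no neighbouring pair in that order differed beyond counting error. Both NOD libraries were below B6 week 4, at 0.811-fold (0.69 to 0.955) and 0.782-fold (0.674 to 0.911). Its B6 age difference changed sign with scaling, from -0.18 to 0.15 (trimmed mean) and 0.19 (quantile). Erg, an ETS factor of stem cells, had RPKM 17.99 and 20.16 in B6 (weeks 4 and 7) and 13.79 and 17.55 in NOD (weeks 4 and 6.5). The older Erg library was the higher in both strains, as deposited by 1.27-fold in NOD (1.14 to 1.42) and 1.12-fold in B6 (1.01 to 1.24). On log2(RPKM + 1) the B6 difference was 0.16 as deposited, 0.50 after trimmed mean scaling and 0.54 after quantile normalization. The NOD difference was 0.33, 0.37 and 0.37 in the same order.

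Tal1, the bHLH paralog of Lyl1, remained at trace level in all 4 libraries. Its RPKM was 0.19 and 0.06 in B6 (weeks 4 and 7) and 0.16 and 0.18 in NOD (weeks 4 and 6.5), on 13, 5, 11 and 18 reads. The NOD age ratio was 1.12 (0.524 to 2.75). B6 week 7 was the lowest library, at 0.316-fold B6 week 4 (0.0862 to 0.923), and NOD week 6.5 was 3-fold B6 week 7 (1.14 to 10.9), all on few reads. Both intervals are of RPKM as deposited, which ran low in general in B6 week 7, and they make no allowance for scaling. Gata2, the GATA factor of stem and mast cells, had RPKM 0.11, 0.02, 0.03 and 0.00 in the same order, on 6, 1, 2 and 0 reads. For the library with 0 reads the upper 95% limit was RPKM 0.0473.

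**Figure D2:**
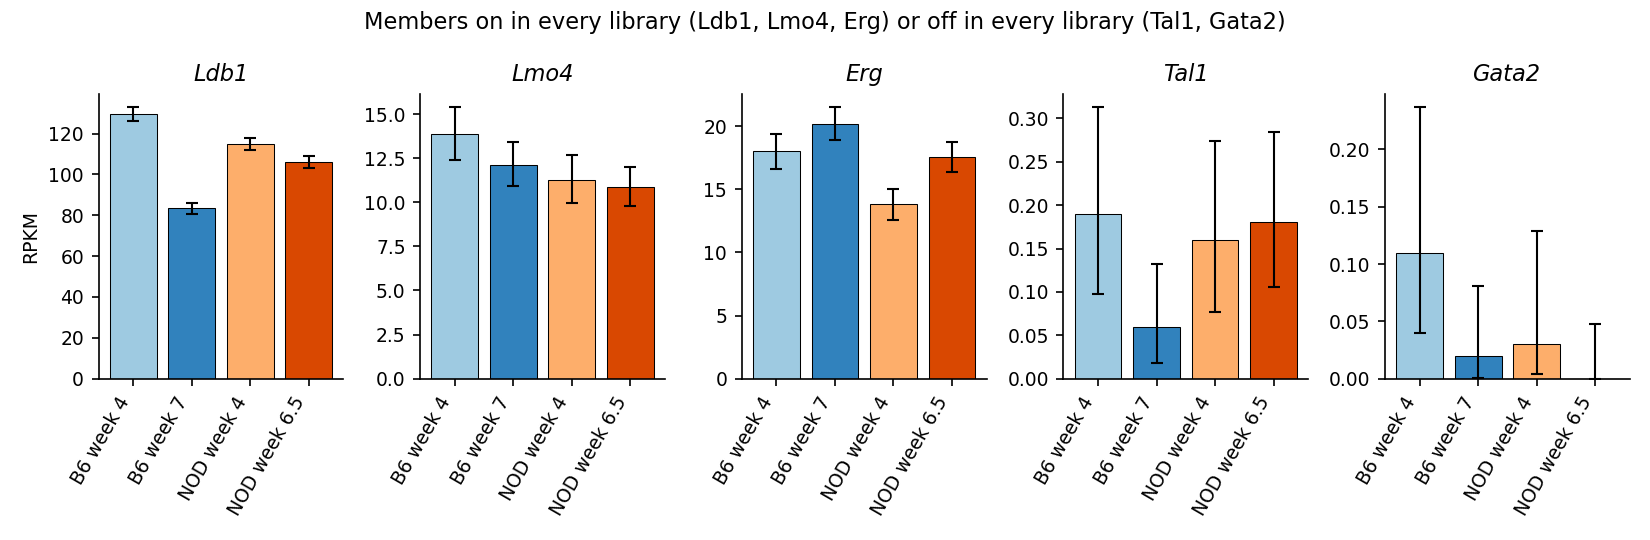
RPKM (vertical axis, linear, own scale in each panel) of the 3 members on in all libraries and the 2 members off in all libraries, as 1 bar per library with the exact 95% counting interval. Ldb1 lies between RPKM 83.38 and 129.73, Erg and Lmo4 between 10.86 and 20.16, and Tal1 and Gata2 at or below 0.19.

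The level of each partner against Lmo2 within the same library depends on neither depth nor library scaling. The Ldb1 to Lmo2 ratio of RPKM was 418 and 758 in B6 (weeks 4 and 7) and 261 and 21.2 in NOD (weeks 4 and 6.5) (18.4 to 24.4). The Lmo4 to Lmo2 ratio was 44.8, 110, 25.6 and 2.17 (1.83 to 2.58) in the same order. So Lmo2 transcripts came within a few-fold of those of its LIM-only paralog in NOD week 6.5 alone among the 4 libraries, and the counting intervals of the other libraries lay above that of NOD week 6.5. By contrast the Ldb1 to Lmo4 ratio stayed between 6.87 and 10.2.

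Of the bHLH pair, Lyl1 exceeded Tal1 in every library, by 20.2-fold and 24.5-fold in B6 (weeks 4 and 7), 5.62-fold in NOD week 4 and 46.6-fold in NOD week 6.5 (29.1 to 79.7). The Lyl1 to Lmo2 ratio was 12.4 in B6 week 4 (6.32 to 27.8) and 13.4 in B6 week 7 (4.9 to 50.4), on 9 and 4 Lmo2 reads. It was 2.05 in NOD week 4 (1.02 to 4.29) and 1.68 in NOD week 6.5 (1.41 to 2). Lyl1 was thus above Lmo2 in every library, and the intervals of both NOD libraries lay below those of both B6 libraries.

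**Figure D3:**
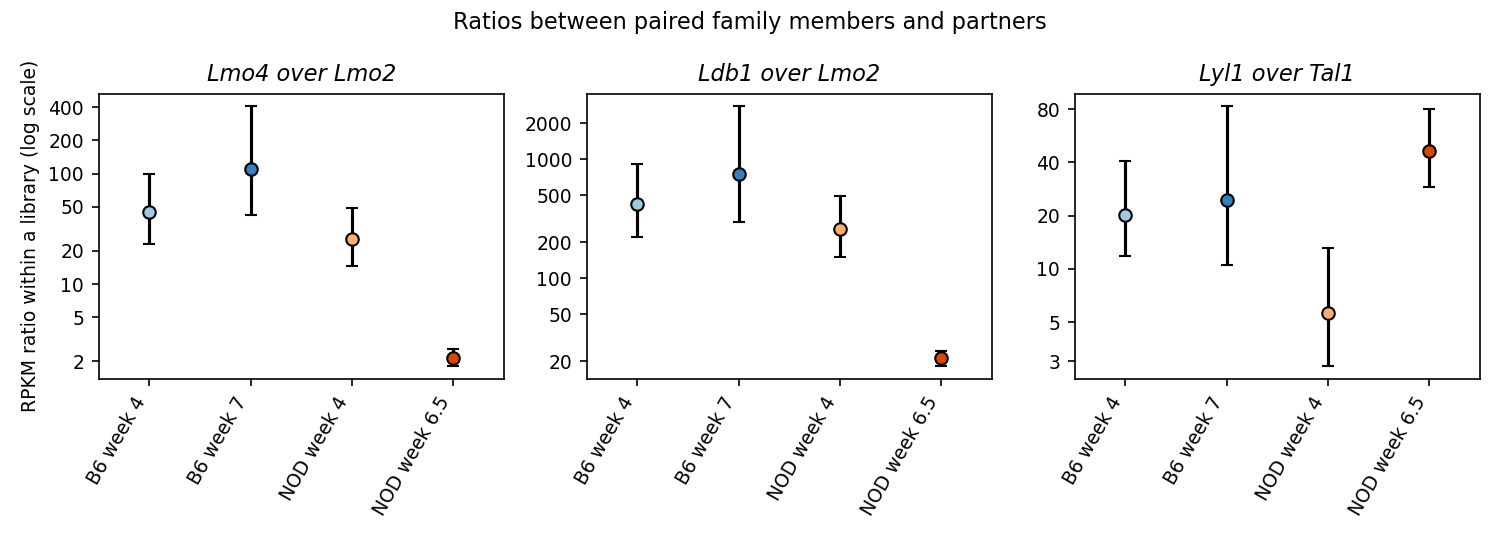
Ratio of RPKM between 2 members within a library (vertical axis, log scale), for Lmo4 over Lmo2, Ldb1 over Lmo2 and Lyl1 over Tal1, as 1 point per library with the exact 95% counting interval. The ratios to Lmo2 are lowest in NOD week 6.5 (2.17 and 21.2), and Lyl1 over Tal1 is highest there (46.6).

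Across genes, a 2-fold difference was read on log2(RPKM + 1), over genes at RPKM 1 or more in either library, a scale that understates the differences of low genes. In NOD, 5 of the 10 members were 2-fold higher at week 6.5 and 0 were lower, beside 0.716% of 12565 genes higher and 0.127% lower. The log2 differences were 2.31 for Lyl1, 2.16 for Hhex, 2.06 for Lmo2, 1.47 for Mef2c and 1.44 for Nfe2. Of the 10, 8 passed the filter on low values, and Lmo2, Lyl1 and Hhex passed through week 6.5 alone. Their median was 1.45, beside -0.05 over all genes tested. The members were named with these data known, so their count is a description.

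In B6, 0 of the 10 members were 2-fold higher at week 7 and 0 lower, beside 0.219% of 12355 genes higher and 3.02% lower. Lyl1 came closest, at -0.97 on the log2 scale (-0.73 after trimmed mean scaling). Hhex was at -0.71, Nfe2 at -0.63, Lmo2 at -0.24 and Mef2c at 0.77. With a pseudocount of 0.1 in place of 1, Lyl1 and Hhex counted as 2-fold lower and Mef2c as 2-fold higher.

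At the younger age, 1 member was 2-fold lower in NOD than in B6 and 0 were higher, beside 2.16% of 12640 genes lower and 2.58% higher. That member was Lyl1, at -1.35, with Nfe2 at -0.71 and Hhex at -0.68. At the older age, 5 members were 2-fold higher in NOD and 0 lower, beside 5.63% of 12643 genes higher and 1.68% lower. The log2 differences were 2.43 for Lmo2, 2.19 for Hhex, 1.93 for Lyl1, 1.36 for Nfe2 and 1.07 for Mef2c, the last falling to 0.89 after trimmed mean scaling. These 4 comparisons share libraries in pairs and are not independent of each other.

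The age difference itself was set side by side in the strains as the NOD log2 difference minus the B6 log2 difference. This quantity was 1 or more for 4 members, Lyl1 (3.28), Hhex (2.87), Lmo2 (2.30) and Nfe2 (2.07), beside 4.61% of 12956 genes, and -1 or less for 0 members, beside 0.486% of genes. Mef2c, higher with age in both strains, was at 0.70. Ldb1 was at 0.52, Tal1 at 0.19, Erg at 0.17, Lmo4 at 0.13 and Gata2 at 0.08, and Erg and Lmo4 changed sign under trimmed mean scaling (-0.13 and -0.16). With 1 library a group the difference has no residual degrees of freedom and was not tested.

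**Figure D4:**
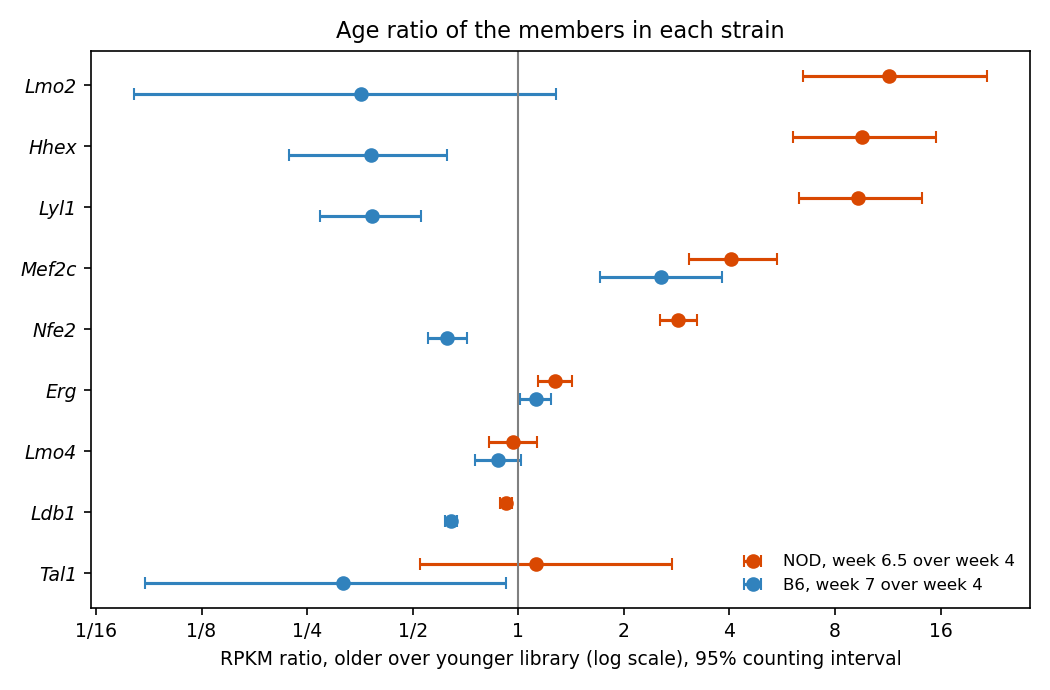
RPKM ratio of the older to the younger library (horizontal axis, log scale) in NOD and in B6 for 9 members, with exact 95% counting intervals; Gata2 is left out because its NOD week 6.5 value is 0. Lyl1, Hhex and Nfe2 lie above 1 in NOD and below 1 in B6, Mef2c lies above 1 in both, and Erg, Lmo4 and Ldb1 lie between 0.643 and 1.27.

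To compare the strains with 2 libraries on each side, both ages of a strain were taken as its libraries. In limma on log2(RPKM + 1), 7 of the 10 members were tested (Lmo2, Tal1 and Gata2 did not reach RPKM 1 in 2 libraries) and 0 were called between NOD and B6 at an adjusted p of 0.05, beside 4.37% of 12413 genes (2.78% higher and 1.59% lower). At an unadjusted p under 0.05 the member count was also 0. Mean RPKM of Mef2c was 3.5 ± 2.98 in NOD and 1.49 ± 0.919 in B6 (SD, n = 2 each; limma log2 difference 0.73, SE 0.47, adjusted p = 0.601). For Lyl1 the SD in NOD exceeded the mean, at 4.65 ± 5.3 against 2.65 ± 1.68 in B6 (SD, n = 2 each; limma adjusted p = 0.891). Adjusted p for the others ran from 0.686 for Hhex to 0.928 for Ldb1. The call depended on the NOD week 4 library: without it, limma called Hhex (log2 difference 1.84, adjusted p = 3.37e-06), Mef2c (1.46, adjusted p = 0.000902) and Lyl1 (1.44, adjusted p = 0.00846), with a single NOD library assumed to vary like the rest and 3.93% of genes called. With age class as a block, limma called Hhex (adjusted p = 0.00808) and Mef2c (adjusted p = 0.0152), beside 8.1% of genes. The block fit and the fit without NOD week 4 each had 1 residual degree of freedom and took their spread wholly from other genes. Lmo4 and Erg were the members whose NOD values both lay below both B6 values, with log2 differences of -0.21 and -0.28, beside 43.9% of genes whose strains did not overlap.

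For age in both strains together, limma with a strain term called 1 member, Mef2c, beside 0.395% of 12413 genes (0.145% higher and 0.25% lower). Mean RPKM was 3.88 ± 2.45 in the older and 1.11 ± 0.389 in the younger libraries (SD, n = 2 each), higher with age in 2 of 2 strains (limma log2 difference 1.12, SE 0.22, adjusted p = 0.000397). The older and younger values did not overlap for Mef2c or Ldb1, beside 32.8% of genes. The fit had 1 residual degree of freedom and took its spread wholly from other genes. The call was lost under trimmed mean scaling (limma adjusted p = 0.454), quantile normalization (0.196), no filter (0.837) or no strain term (0.97). Fits that left out 1 library also dropped the strain term, so they do not show the effect of the library alone. Their log2 differences for Mef2c ran from 0.58 to 1.66. Hhex (limma log2 difference 0.72, adjusted p = 0.13) and Lyl1 (0.67, adjusted p = 0.308) were not called.

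Genes for the other proteins known to join Lmo2 complexes were on in all libraries, with a single exception. Of 16 such genes matched, 15 passed the filter, and on log2(RPKM + 1) 0 were 2-fold higher and 0 lower in each of the 4 comparisons, with a median of -0.09 in NOD with age. In limma between the strains 0 of the 15 were called. The E proteins, with which Lyl1 and Tal1 dimerise, were abundant: E2A (listed as Tcfe2a) was at RPKM 75.22 and 37.21 in B6 (weeks 4 and 7) and 75.76 and 69.26 in NOD (weeks 4 and 6.5), with the B6 age difference at the edge of the 2-fold call. HEB (Tcf12) was at 94.66, 79.81, 92.87 and 101.55. Gata3, the GATA factor of T cells, was at 20.82, 14.77, 23.21 and 19.20. Gata1 was at 3.96, 2.63, 2.79 and 1.42, lowest in NOD week 6.5. The Eto-family corepressor Cbfa2t3 (listed as Cbfa2t3h) was at 31.15, 18.92, 36.72 and 28.69. Ldb2 was at 0 in all 4 libraries.

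Other LIM-only and bHLH paralogs were at or near 0. Of 6 paralogs, Lmo3, Tal2, Nhlh2 and Msc were at 0 in all 4 libraries, and Lmo1 was at RPKM 0.73, 0.22, 0.09 and 0.03 in the order B6 weeks 4 and 7, NOD weeks 4 and 6.5, on 16, 6, 2 and 1 reads. Of 14 transcription factors activated in T-cell leukaemia, 4 passed the filter in NOD and 0 were 2-fold different with age, and 7 were at 0 in every library. Notch1, the highest of them in 3 of the 4 libraries, was at 252.12, 139.46, 316.80 and 249.46. The Id proteins, which keep E proteins off DNA, had 3 of 4 genes pass and 0 with a 2-fold difference on log2(RPKM + 1) in any of the 4 comparisons.

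Of the stem cell factors outside the members, none was 2-fold different in NOD with age. There were 19, of which 9 passed the filter, with 0 higher, 0 lower and a median of -0.11. Sfpi1, which encodes PU.1, was at RPKM 1.23 and 0.57 in B6 (weeks 4 and 7) and 0.30 and 1.44 in NOD (weeks 4 and 6.5). It was 4.8-fold higher in NOD with age (2.11 to 12.4) but short of the 2-fold call on the log2(RPKM + 1) scale, at 0.91. Meis1 stayed at or below 0.06 and Hoxa9 at or below 0.05. Spib, a relative of PU.1, was at 17.37, 8.01, 25.69 and 19.32. It was 2-fold lower in B6 with age (-1.03), near the edge of the call and beside the general low shift of B6 week 7. Between the older libraries Spib was 2-fold higher in NOD (1.17), also against B6 week 7.

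Among 16 progenitor surface and signalling genes, 6 passed in NOD, 2 were 2-fold higher at week 6.5 and 0 lower. Kit, the stem cell factor receptor, was at RPKM 7.62 and 4.25 in B6 (weeks 4 and 7) and 6.33 and 19.37 in NOD (weeks 4 and 6.5). Dlk1, a Notch-related membrane protein, was at 0.00, 0.03, 0.25 and 10.17, the sharpest contrast in the list at 40.7-fold in NOD (19.7 to 102). Other progenitor receptors stayed low: Flt3 at or below 0.05 and Cd34 at or below 0.74. All 21 T-lineage commitment genes were on in every library, with 0 higher and 0 lower in NOD with age and a median of -0.19.

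The genes with profiles most like Lmo2, Lyl1 and Hhex were found by the distance between centred log2(RPKM + 1) profiles over the 4 libraries, among 8816 other genes with few shared reads. For Lmo2 they were F2r (0.25), a thrombin receptor, Mdga1 (0.25), Lrrc4b (0.38), Gpr97 (0.46), an adhesion receptor, and Clec4e (0.47), a C-type lectin. For Lyl1 they were Hhex (0.51), Cd7 (0.57), Nfe2 (0.66), Kifc3 (0.72) and Cd5 (0.72). Hhex and Nfe2 are members, which were named with these data known, and the member Lmo2 ranked 53 from Lyl1. For Hhex they were Cd7 (0.37), Mdga1 (0.39), F2r (0.45), Kifc3 (0.49) and Kit (0.49). Cd7 had RPKM 1.80 and 1.25 in B6 (weeks 4 and 7) and 0.83 and 6.29 in NOD (weeks 4 and 6.5). With 4 libraries, many genes can share a profile, and the likeness carries no test.

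Markers of other cell types were read beside these results. Of 9 mast cell markers matched, 2 passed the filter, Cpa3 and Kit, which were both 2-fold higher in NOD week 6.5. Cpa3 was at RPKM 19.44, 18.90, 5.34 and 43.62 in the order B6 weeks 4 and 7, NOD weeks 4 and 6.5. In the same order the summed list was 27.32, 23.33, 11.84 and 63.31, and without Cpa3 and Kit it was 0.26, 0.18, 0.17 and 0.32. Mcpt4, Mcpt6 and Ms4a2 were at 0 in all libraries. The 12 megakaryocyte markers include Nfe2, and without it their sum was 7.25, 6.07, 7.11 and 8.87, with Ppbp at 0. Erythroid markers summed to 46.25, 15.18, 47.21 and 8.17, the reverse of the Lmo2 profile in NOD, with most of it in the haemoglobin genes Hba-a1 and Hbb-b1, whose reads are largely shared.

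Of 15 NK and innate lymphoid markers, Gzmb was 2-fold higher in NOD week 6.5, at RPKM 0.41, 0.53, 0.41 and 7.67, while the list summed to 174.71, 153.33, 138.39 and 120.94. Sums for B-cell markers were 40.17, 29.80, 31.72 and 26.22, with Pax5 and Ms4a1 at 0. For myeloid markers they were 31.48, 25.51, 30.88 and 25.18, with Elane and Ly6g at 0. For dendritic cell markers they were 122.85, 95.34, 91.76 and 93.64, and for endothelial and stromal markers 57.10, 43.42, 45.17 and 40.97, with Foxn1, Tek and Emcn at 0. Within that last list Pecam1 was highest in NOD week 6.5, at 22.40, 19.03, 18.07 and 27.29, as was Cdh5, at 0.08, 0.06, 0.03 and 0.24, while Tacstd1 (Epcam) was lowest there, at 34.21, 23.99, 26.79 and 13.21. None of these last 5 sums was highest in NOD week 6.5. The part of Cpa3, Kit, Gzmb, Pecam1 and Cdh5 expression in the result was not tested.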

How the data were processed

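Poly(A) RNA of flow-sorted thymocytes was fragmented, copied by random priming with no strand-specific step in the labels' protocols, and sequenced. Reads were 32 bases long per the file names and were aligned with Bowtie 0.12.1 to mm9, per the submitters' processing notes. The counting program and annotation are not given in the sources at hand. The values are RPKM as deposited, with a fraction of reads shared with other places per gene, also deposited by the authors, and model lengths. Regions with no gene name, 0.28% to 0.53% of reads, were left out, as they name no gene. Raw counts were not used here, so reads were recovered from the RPKM steps of low genes. Of the values used, 98.8% to 100.0% came out within 0.1 of a whole read.

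Differences between libraries were read as RPKM ratios with exact 95% intervals and as log2(RPKM + 1) with a filter at RPKM 1. Across the 4 libraries limma 3.58.1 (R 4.3.3) with an intensity trend was fitted to log2(RPKM + 1) over genes at RPKM 1 or more in 2 libraries, two-sided, adjusted by Benjamini-Hochberg over all genes at 0.05. In the strain fit the spread within a strain includes its age difference. In the reported age fit, the block fit and the strain fits that left out a NOD library, the spread was taken wholly from other genes. The libraries are not shown to be separate animals, so no p-value here measures a spread between animals. The recovery of read depth and the limma strain fit were tested on simulated data. The values simulated for limma had a constant spread and no age difference, and the age fit was not simulated. Alternatives were other pseudocounts (0.1 and 5), filters, scalings, shared reads left out, a block or strain term, and each library left out. The age fits with 1 library left out had no strain term.

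The members and lists were chosen with earlier results of these data known. All 10 members were named. List genes were named where 2-fold different in NOD with age or highest in a list, and others (Sfpi1, Spib, Meis1, Hoxa9, the E proteins, the GATA factors, Cbfa2t3h, Ldb2, Flt3, Cd34 and Lmo1 among them) were named after their values were seen. Of 174 list entries 168 matched, 14 of these through the current symbol. Promoters are from RefSeq on GRCm38.p6, a build other than that of the reads, and only their letters were used.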

Additional observations from a re-analysis of the deposited data

Results flagged for a closer look

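For 3 members the age difference ran in opposite directions in the strains, with the counting interval of the age ratio on opposite sides of 1. Each was higher with age in NOD and lower with age in B6, and the NOD difference minus the B6 difference on log2(RPKM + 1) was 3.28 for Lyl1, 2.87 for Hhex and 2.07 for Nfe2. The value for Nfe2 was 1.78 after trimmed mean scaling and 1.76 after quantile normalization, with its B6 difference going from -0.63 to -0.30 and -0.26. With 1 library a group this difference was not tested, and the intervals cover counting error only.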

How the results depend on the processing

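The labels give no replicate numbers, so libraries were matched only by age class or by strain, as given below. Of 250 log2 ratios of members under an alternative, 12 crossed 2-fold and 6 changed sign. Of 140 limma differences of members, 5 gained a call, 8 lost one and 14 changed sign. With a pseudocount of 0.1, genes 2-fold higher and lower went from 90 and 16 to 189 and 91 in NOD with age, from 27 and 373 to 95 and 784 in B6 with age, from 326 and 273 to 550 and 454 between the younger libraries, and from 712 and 213 to 1233 and 393 between the older ones. Members then counted 1 higher and 2 lower in B6 with age, and 2 lower in NOD between the younger libraries. With a pseudocount of 5 the same pairs of gene counts were 30 and 5, 1 and 112, 111 and 100, and 221 and 92. Members were then 3 higher in NOD with age, 3 higher in NOD between the older libraries and 0 lower between the younger ones. A filter at RPKM 5 gave 59 higher in NOD with age, 12 higher in B6 with age, 198 higher and 181 lower between the younger libraries with 0 members lower, and 140 lower between the older ones. Trimmed mean scaling gave 94 higher and 86 lower in B6 with age, and 460 higher and 325 lower between the older libraries. Quantile normalization gave 85 and 79, and 447 and 345. These scalings left 4 members higher between the older libraries.

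In limma between strains, 345 higher and 197 lower became 82 and 40 with no filter and 665 and 340 with age class as a block, which called 2 members. Strain fits that left out 1 library left 1 library in a strain, so their counts are no test of the members. Leaving out 1 library gave 264 to 2919 higher, 146 to 452 lower and 0 to 3 members, the highest gene counts being without B6 week 4. In limma for age, 18 higher and 31 lower became 0 and 0 with no filter, under trimmed mean scaling or with no strain term, and 2 and 1 under quantile normalization, with 0 members called in each. Fits for age that left out 1 library also dropped the strain term and left 1 library in an age class. They therefore do not show the effect of the library alone. Differences that changed sign, none of them called in the reported limma fits, were Ldb1 between strains (-0.01 with trimmed mean scaling) and Lmo4 with age (0.07 with trimmed mean scaling, 0.09 with quantile normalization). On leaving out 1 library, strain differences ran from -0.86 to 1.44 for Lyl1, -0.32 to 1.84 for Hhex, -0.40 to 1.04 for Nfe2, -0.01 to 1.46 for Mef2c and -0.23 to 0.40 for Ldb1. Age differences, from fits that also dropped the strain term, ran from -0.30 to 1.63 for Lyl1, -0.37 to 1.82 for Hhex, -0.28 to 1.08 for Nfe2 and -0.25 to 0.03 for Lmo4. Tal1, Gata2 and, in 3 libraries, Lmo2 rest on 18 reads or fewer, so their ratios are wide.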
